A study of Mus musculus with 4 samples.

Results

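The genes described here encode the proteins of the cytosolic ribosome. They were chosen by name, as every probe of the array whose gene name was Rpl or Rps followed by a digit, or was Rplp0, Rplp1, Rplp2 or Rpsa, without the S6 kinases (Rps6k) and without names that end in -ps, which mark pseudogenes. This gave 84 of 36038 genes, namely 46 genes of the large subunit, 30 of the small subunit and 8 paralogues, which are extra gene copies with their own probes. The 2 subunits were read by 175 probes of 60 nucleotides, and 55 of their 76 genes had more than 1 probe. No probe carried the name Rps23.

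The 4 arrays were made from the mouse embryonic stem (ES) cell line E14Tg2A (strain 129/Ola), which was grown on gelatin with serum and leukaemia inhibitory factor (LIF). One array held untreated ES cells at day 0. The second held untreated epiblast-like aggregates (ELA), in which the same cells had been kept in suspension for 2 days in a defined minimal medium without LIF and had entered the primed state of pluripotency. The third held ELA formed in the presence of the DNA methyltransferase inhibitor 5-azacytidine (AZA) at 50 nM. The fourth held ELA formed with 5-carboxy-8-hydroxyquinoline (CHQ), which blocks histone lysine demethylases, at 100 µM. Each array was hybridised with a pool of RNA from 3 experiments, so there was no replicate array and no test between groups could be made, and a single cell line stands for each state.

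A ribosome holds 1 copy of nearly every ribosomal protein, and cells make the proteins of the large and the small subunit in step with ribosomal RNA. Their mRNAs are among the most abundant of any growing cell and begin with a run of pyrimidines, the 5′ terminal oligopyrimidine (TOP) tract, through which the mTOR pathway and the protein Larp1 control their translation. Unassembled ribosomal proteins such as Rpl5, Rpl11 and Rpl23 can bind Mdm2 and thereby stabilise p53, and several ribosomal protein genes have paralogues that are used mainly in the testis or in muscle.

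ES and ELA were hybridised on 1 slide and scanned together, and AZA and CHQ on a second slide. Treatment and slide therefore cannot be told apart where AZA or CHQ is set against ELA, while ELA minus ES and CHQ minus AZA are differences within a slide. Between 55.1% and 69.2% of the spots of an array were well above background, and no spot was saturated. The median local background was 59 and 77 on the first slide and 14 and 13 on the second. The standard deviation of repeated spots of a probe was 0.13 to 0.16 on the log2 scale, which measures printing and reading error only. Of 6 pluripotency markers 6 were well above background on each array, but their median was 14.94, 12.31, 14.72 and 13.49 on ES, ELA, AZA and CHQ. Pou5f1 alone did not follow, with 14.95, 14.46, 14.05 and 13.56. Of the primed markers, Fgf5 gave 11.61, 14.47, 11.94 and 13.33, Dnmt3b 17.44, 18.49, 16.78 and 17.44, and Otx2 15.27, 15.85, 16.18 and 15.54. The inhibitor arrays thus differed from ELA in markers of cell state too, and the part of this in the values below was not tested. Of 18 markers of other lineages 10, 8, 13 and 13 were well above background on ES, ELA, AZA and CHQ, and the log2 of their summed intensity was 15.49, 15.12, 13.61 and 14.13. Krt8, a keratin, made up most of that sum on ES (15.17), and the median of the list went the other way, with 6.927, 6.725, 7.499 and 7.647. Among markers of primitive endoderm, Gata6 and Sox17 were well above background with AZA and CHQ alone, Sox7 with ES and AZA, and Gata4 on all 4 arrays. The part of such cells in the values below was not tested, and in RNA from whole cultures fewer cells of a type and less RNA per cell cannot be told apart.

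Every subunit gene had a probe well above background on all 4 arrays. Values are normalised intensities on the log2 scale, taken for each gene from its brightest probe. On ES, ELA, AZA and CHQ the median over the large subunit was 18.25, 18.24, 18.20 and 18.09, and over the small subunit it was 18.18, 18.16, 18.13 and 18.16. The brightest probe lay at 17 or more on all 4 arrays for 72 of 76 genes, a signal that 1.76% of all genes reached as a mean over the arrays. This is a statement on probe signal, which also depends on the probe. Rpl21 stood apart, since its probes gave no more than 10.50 on any array. Probes named for its pseudogenes were brighter, and on ES Rpl21-ps4 gave 17.32, Rpl21-ps5 16.84 and Rpl21-ps1 15.33. Whether those probes also read Rpl21 mRNA was not tested, so a low level of that mRNA cannot be read from these values.

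**Figure D1:**
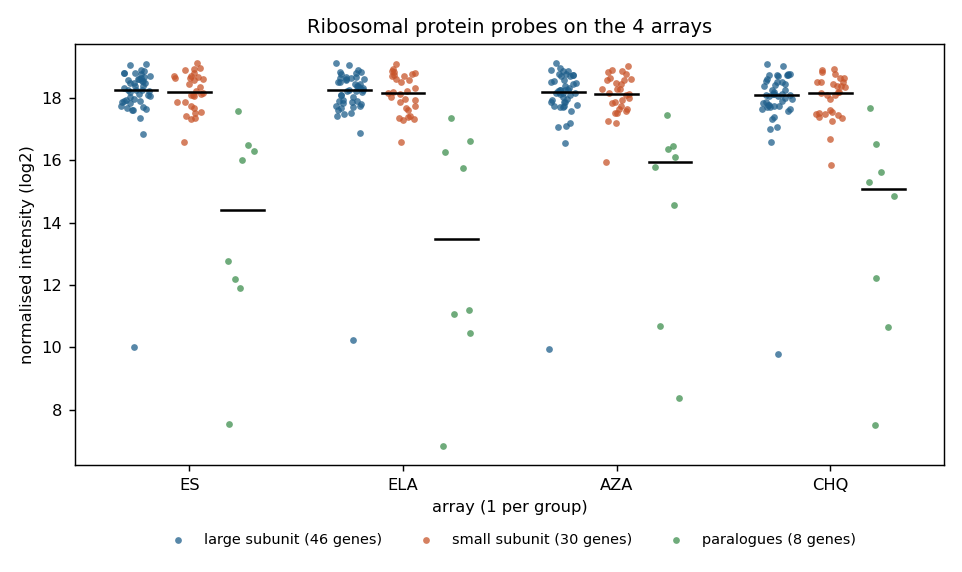
Normalised intensity (log2, y axis) of the brightest probe of each gene on each array (x axis). Each point is 1 gene and black bars are medians. The subunit genes other than Rpl21 sit between 15.83 and 19.11, while the 8 paralogues spread from 6.83 to 17.67.

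The first comparison was that of ES cells in serum and LIF with the primed state, ELA minus ES, within 1 slide. The ribosomal protein genes differed little between these arrays. The median difference was -0.02 over 46 large subunit genes and -0.04 over 30 small subunit genes, beside -0.03 over all 28311 detected genes. The middle 50% of the 76 genes spanned -0.08 to 0.02, while that of all detected genes spanned -0.29 to 0.23. Other bright genes were also narrow, since that of the 557 other genes with a mean of 17 or more spanned -0.11 to 0.06.

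With no replicates there is no test, so a fixed size was used. A gene was called where its arrays lay 1 log2 unit or more apart with a mean of 7.5 or more and a signal well above background on either array. In ELA minus ES, 0 of 76 subunit genes were called in either direction, where 4.45% of 18946 genes were higher and 5.59% lower. By any amount, 24 of the 76 genes were higher in ELA, where 47.9% of all genes were. All 76 lay within 0.5 of 0, as did 71.7% of all genes and 97.5% of the 557 other bright genes. Of those 557 genes, 3 were called higher and 4 lower.

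Among the large subunit genes, Rplp0, a protein of the stalk that recruits elongation factors, stood at 19.07, 19.11, 18.97 and 19.07 on ES, ELA, AZA and CHQ. Its partner Rplp1 gave 18.49, 18.44, 18.32 and 18.41 in that order, and Rplp2 gave 18.66, 18.66, 18.89 and 18.74. By these probes the 3 stalk genes lay within 0.24 of their ELA level on all arrays, while the dimmest Rplp0 probe differed by -0.47 with AZA and -0.28 with CHQ. Rpl5, which carries 5S ribosomal RNA into the large subunit, measured 16.84, 16.87, 16.56 and 16.59. Rpl11, which travels with Rpl5, measured 18.47, 18.46, 18.26 and 18.10, and Rpl23 measured 18.53, 18.51, 18.55 and 18.55. These values depended on the probe, since the second probe of Rpl23 differed from ELA by -0.26 with AZA and -0.31 with CHQ, and that of Rpl11 by 0.17 and -0.24. Rpl10, which joins late at the subunit interface, read 18.80, 18.83, 18.76 and 18.60. Rpl38, known from mouse mutants with a patterning defect of the skeleton, read 18.22, 18.32, 18.16 and 17.89, and Rpl22 read 18.13, 18.08, 17.75 and 17.64.

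Among the small subunit genes, Rps6, the target of S6 kinase, stood at 18.20, 18.23, 18.48 and 18.37 on ES, ELA, AZA and CHQ. Rps19, whose human counterpart is mutated in Diamond-Blackfan anaemia, measured 17.31, 17.41, 17.50 and 17.39, and Rpsa, also known as the laminin receptor, measured 18.61, 18.57, 18.27 and 18.33. By these probes Rps6 was higher on both inhibitor arrays than on ELA, while Rpsa was lower on both. The dimmest of the 3 Rps6 probes differed from ELA by -0.57 with AZA and -0.66 with CHQ, and the second brightest of the 4 Rpsa probes by 0.18 and 0.16. Rps27a, made as a fusion with ubiquitin, read 18.63, 18.74, 18.62 and 18.49.

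The extremes of ELA minus ES were small. The 5 genes highest in ELA were Rpl21 (0.23), Rps27a (0.11), Rpl38 (0.10), Rpl4 (0.10) and Rps19 (0.10). The direction of Rpl21 depended on the probe, since its second probe, of nearly the same signal, gave -0.12. Among the 5 lowest were Rpl36a (-0.21), Rps29 (-0.16), Rpl23a (-0.14) and Rpl37a (-0.14).

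**Figure D2:**
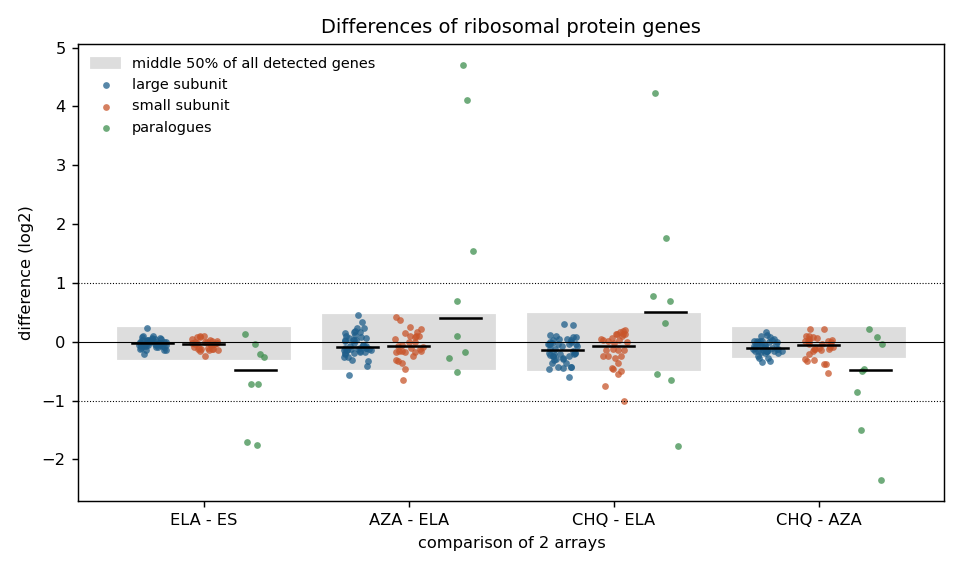
Difference between 2 arrays (log2, y axis) for each comparison (x axis), with 1 point per gene, medians as black bars and the middle 50% of all detected genes as grey boxes; dotted lines mark 1 log2 unit. The subunit genes lie within the dotted lines in all 4 comparisons, and the points beyond them are paralogues.

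With AZA the middle 50% of the 76 genes was 0.25 wide, against 0.10 in ELA minus ES, and that of all genes was 0.91 wide, against 0.52. The median of AZA minus ELA was -0.09 over the large and -0.07 over the small subunit, beside -0.02 over all genes. No subunit gene was called (0 of 76), where 14.3% of 19158 genes were higher by 1 log2 unit or more and 11.4% lower. By any amount 30 were higher, where 45.7% of all genes were. The 5 highest differences were those of Rpl28 (0.46), Rps18 (0.43), Rps15 (0.37), Rpl10a (0.34) and Rps6 (0.25). The 5 lowest were those of Rps21 (-0.64), Rpl7a (-0.56), Rps3 (-0.47), Rpl4 (-0.41) and Rps12 (-0.36).

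With CHQ the median was -0.15 over the large and -0.07 over the small subunit, beside -0.03 over all genes. Again 0 of 76 genes were called, where 14.8% of 19162 genes were higher and 11.9% lower, and 23 were higher by any amount, where 45.7% of all genes were. Rps3, which lies at the mRNA entry channel and is also known as a DNA repair protein, came nearest to a call. It measured 17.69, 17.67, 17.20 and 16.67 on ES, ELA, AZA and CHQ. The difference of CHQ from ELA, -0.998, was just short of the threshold. Its other 2 probes gave -0.37 and -1.34, so the size depended on the probe. Rps21 (-0.76), Rpl7a (-0.61) and Rps14 (-0.55) followed. Rps21 measured 16.59, 16.59, 15.94 and 15.83 on the 4 arrays, and the 4 probes of Rpl7a gave -0.43 to -0.70. Among the 5 highest differences with CHQ were those of Rpl28 (0.31), Rpl23a (0.29), Rps29 (0.20) and Rps3a (0.16). Rpl28 measured 17.72, 17.73, 18.19 and 18.04, and its second probe gave 0.46 with AZA and 0.26 with CHQ. AZA and CHQ share the ELA array as their control, so their values for a gene are not independent.

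CHQ minus AZA, the comparison within the second slide, gave medians of -0.10 over the large and -0.06 over the small subunit, beside -0.03 over all genes. None of the 76 genes were called, where 5.53% of 19195 genes were higher and 4.81% lower, and 24 were higher by any amount, where 47.2% of all genes were. Rps3 (-0.53), Rps14 (-0.38), Rps15 (-0.37), Rpl10a (-0.34) and Rpl3 (-0.32) were lowest, and Rps4x (0.21), Rps2 (0.21), Rpl36a (0.17) and Rpl23a (0.11) were among the highest.

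These values rest on quantile normalisation, which gives all arrays the same distribution and therefore ties the brightest probes together. When that step was left out the arrays differed at the top. The 75th percentile scaling also started from another signal, that processed by the scanner software, so more than the quantile step changed. With each array scaled to its 75th percentile instead, the 99th percentile of all probes lay at 17.83, 17.82, 17.20 and 16.99 on ES, ELA, AZA and CHQ, while the median lay between 6.25 and 6.29. Under that scaling all 76 subunit genes were lower with AZA and all 76 were lower with CHQ than in ELA. The median over the 76 genes was -0.85 for AZA and -1.06 for CHQ, beside -0.17 and -0.21 over all genes.

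With this scaling 19 of the 76 genes were called lower with AZA, where 14.7% of all genes were called lower, and 47 lower with CHQ, where 19.0% were. Rplp0 then measured 19.24, 19.43, 18.24 and 18.20 on ES, ELA, AZA and CHQ, and Rps3 differed from ELA by -1.03 with AZA and -1.73 with CHQ. Rps6 measured 18.50, 18.58, 18.06 and 17.85, so that it turned from higher to lower on the inhibitor arrays. Rpl28, the highest difference under quantile normalisation, measured 18.24, 18.29, 18.03 and 17.72. The direction of ELA minus ES turned as well, with 50 of 76 genes higher in ELA and a median of 0.03.

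Scaling to the 7 E1A spike-in probes, which read a control RNA added to the samples, gave medians over the 76 genes of -0.88 for AZA and -1.18 for CHQ against ELA. For the comparisons within a slide it gave -0.55 (ELA minus ES) and -0.31 (CHQ minus AZA), and all 76 genes were lower in each of the 4 comparisons. It called 26 genes lower with AZA, where 15.0% of all genes were, and 58 lower with CHQ, where 22.4% were. The medians of all genes under this scaling were -0.37 and -0.51 with AZA and CHQ, -0.52 for ELA minus ES and -0.17 for CHQ minus AZA.

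The shift was shared by other genes of like signal. The 557 other genes with a mean of 17 or more had medians of -0.76 with AZA and -0.99 with CHQ under the 75th percentile, and 541 and 546 of them were lower. Under that scaling 102 of the 557 were called lower with AZA and 270 with CHQ, and under the spike-in probes 111 and 355. Set against these genes, the ribosomal protein median differed by -0.09 for AZA and by -0.07 for CHQ under the 75th percentile, by -0.11 and -0.08 under the spike-in probes, and by -0.03 and -0.03 under quantile normalisation. The ribosomal protein genes thus lay close to other bright genes under each of these scalings, while their difference from ELA depended on the scaling. The part of the slide in the lower top end of the AZA and CHQ arrays was not tested.

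**Figure D3:**
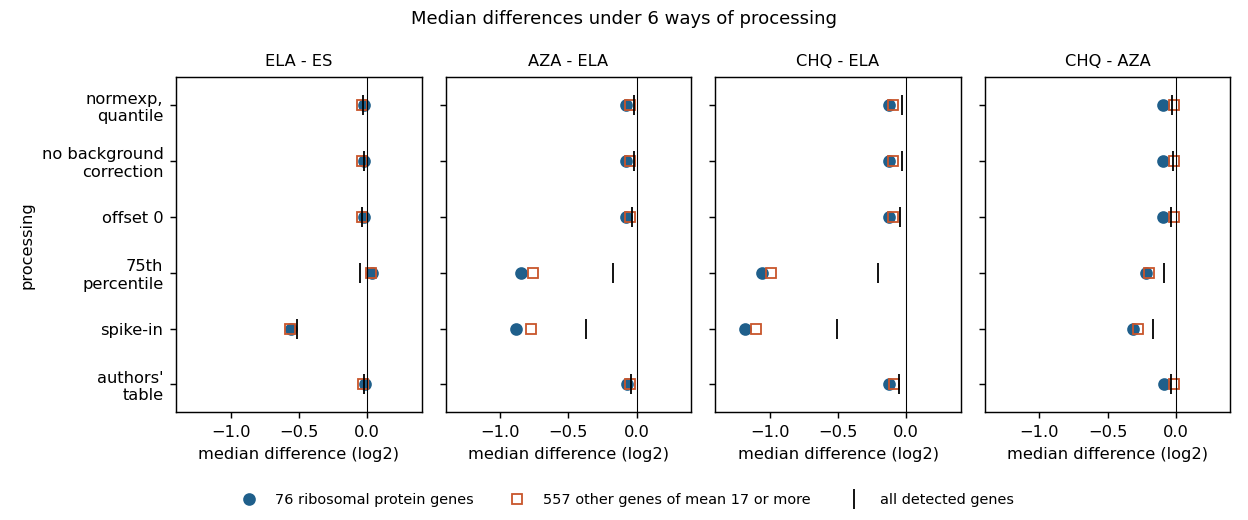
Median difference (log2, x axis) of the 76 subunit genes (filled circles), of the 557 other genes with a mean of 17 or more (open squares) and of all detected genes (bars) under 6 ways of processing (y axis), for each comparison. Circles and squares lie within 0.11 of each other in every row, and both lie between -0.76 and -1.18 under the 75th percentile and the spike-in probes when AZA or CHQ is set against ELA.

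Probes that read a gene dimly gave another picture than the brightest ones. Of the 175 subunit probes, 174 were well above background on all 4 arrays and 1 was so on none. The 19 probes with a mean under 15 differed from ELA by medians of -0.64 with AZA and -0.77 with CHQ under quantile normalisation, and 17 of them were lower in each. The 25984 other probes in that range that were well above background on all arrays had medians of -0.16 and -0.17. For ELA minus ES the medians were -0.03 and -0.02. The 67 subunit probes at 18 or more had medians of -0.10 and -0.11 with AZA and CHQ.

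In 18 genes the dimmest probe lay 2 or more log2 units below the brightest. Over these genes the brightest probe had a median of -0.05 with AZA and -0.12 with CHQ, and the dimmest had -0.65 and -0.77. The dimmer probe gave the lower difference in 16 of the 18 genes for each inhibitor, and for ELA minus ES in 8 of 18. By the coordinates in the files, the dimmer probe lay downstream of the brighter one along the gene in all but 3 of the 18, Rpl30 and Rps27a among those 3. If the dimmest probe well above background was read for every gene, 1 gene was called lower with AZA, where 12.8% of all genes were, and 9 with CHQ, where 13.6% were. Among those 9 were Rpl13a, Rpl14, Rpl17, Rpl21, Rpl30, Rps3, Rps25 and Rps27a.

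The probes of Rpl30 show the contrast within a gene, and Rps24 shows the opposite one, so their sequences are given, 5′ to 3′ as printed on the array. The coordinates are those of the files (mouse build mm9).
Rpl30, brighter probe, chr15:34371013-34371072, minus strand: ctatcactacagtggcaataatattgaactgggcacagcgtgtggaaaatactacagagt
Rpl30, dimmer probe, chr15:34372831-34372890, minus strand: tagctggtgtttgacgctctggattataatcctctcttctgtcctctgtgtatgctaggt
Rps24, first probe, chr14:25315021-25315080, plus strand: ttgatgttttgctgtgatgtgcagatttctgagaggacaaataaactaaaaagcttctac
Rps24, second probe, chr14:25312695-25315015, plus strand: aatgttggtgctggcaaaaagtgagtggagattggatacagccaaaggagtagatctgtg

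On ES, ELA, AZA and CHQ the brighter Rpl30 probe measured 17.82, 17.70, 17.86 and 17.75, and the dimmer one 13.17, 13.21, 12.51 and 11.73, so that the brighter one differed little and the dimmer one was lowest with CHQ (-1.47). In Rps24 the first probe measured 18.58, 18.52, 18.28 and 18.08, while the second, whose coordinates span an interval longer than the probe and so cross a splice junction, measured 17.43, 17.78, 18.40 and 18.50. Rps24 is known for alternatively spliced last exons, and here its probes differed from ELA in opposite directions, by -0.44 and 0.72 with CHQ, and its other 2 probes were lower, by -0.32 and -0.28.

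Probes of Rpl17, Rpl14 and Rps27a also lay 1 log2 unit or more apart. The 7 probes of Rpl17 ranged from -0.86 to 0.42 with AZA and from -1.32 to 0.19 with CHQ, and the 3 probes of Rpl14 from -1.05 to -0.03 with CHQ. In Rps27a a probe upstream of the brightest one differed from ELA by -1.38 with CHQ, and the brightest one by -0.24. For 12 probes of 6 genes (Rpl13, Rpl31, Rpl36, Rps27, Rps29 and Rps4x) the files give a chromosome other than that of the RefSeq gene, and the 2 probes of Rps2 are placed 18007258 bases apart, so such probes may read a near-identical copy, and single values of these genes are uncertain.

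**Figure D4:**
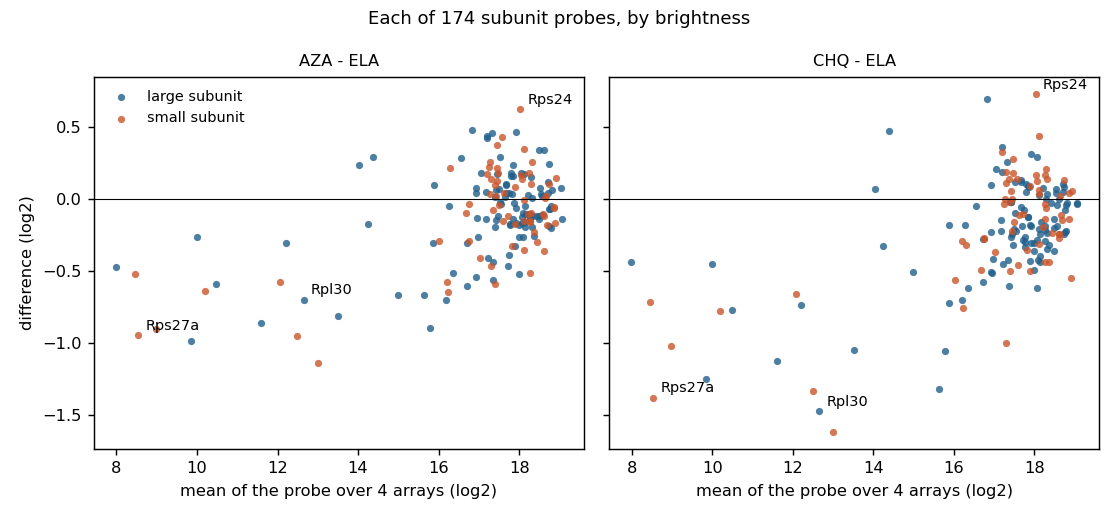
Difference from ELA (log2, y axis) of each of 174 subunit probes against its mean over the 4 arrays (log2, x axis), for AZA and CHQ. Probes at 17 to 18 have medians of 0.02 with AZA and -0.12 with CHQ, and probes at 18 or more have -0.10 and -0.11. Of 19 probes under 15 all but 2 lie below 0 in each panel.

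Of the 8 paralogues 4 were called in at least 1 comparison. In ELA minus ES 2 were lower (5.59% of all genes), with AZA 3 were higher (14.3%), with CHQ 2 were higher (14.8%) and 1 lower (11.9%), and in CHQ minus AZA 2 were lower (4.81%). Rpl10l, an intronless copy of the X-linked Rpl10 that is known from the testis, was read by 2 probes that lie in the gene on chromosome 12, and Rpl39l, a copy of the X-linked Rpl39 also known from the testis, by 1 probe. Their sequences are given because these genes carry the largest differences, with that of Rpl22l1, a copy of Rpl22 that differed the other way with CHQ (build mm9).
Rpl10l, first probe, chr12:67384403-67384462, minus strand: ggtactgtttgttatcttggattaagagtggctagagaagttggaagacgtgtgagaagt
Rpl10l, second probe, chr12:67384868-67384927, minus strand: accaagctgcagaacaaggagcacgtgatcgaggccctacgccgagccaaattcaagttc
Rpl39l, chr16:10174657-10174716, plus strand: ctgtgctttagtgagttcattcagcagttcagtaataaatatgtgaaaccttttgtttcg
Rpl22l1, chr3:28706237-28706296, plus strand: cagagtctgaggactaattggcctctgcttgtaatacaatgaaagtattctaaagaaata

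The first probe of Rpl10l measured 12.77 in ES, 11.06 in ELA, and 15.77 and 15.28 with AZA and CHQ. It was called lower in ELA than in ES (-1.71) and higher with AZA (4.71, or 26.1-fold) and with CHQ (4.22, or 18.6-fold) than in ELA. Its second probe measured 10.69, 9.1, 13.44 and 12.79 and followed the same order of arrays. Both inhibitor arrays lay above both untreated arrays, and CHQ minus AZA, within the slide, was -0.49. Over 6 ways of processing, AZA minus ELA ranged from 4.47 to 4.89 and CHQ minus ELA from 3.75 to 4.41.

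Rpl39l measured 12.20 in ES and 10.45 in ELA, beside 14.56 with AZA and 12.21 with CHQ. It was called lower in ELA than in ES (-1.75), and higher with AZA (4.11, or 17.2-fold) and with CHQ (1.76, or 3.38-fold) than in ELA. Unlike Rpl10l it was also called between the inhibitors, lower with CHQ than with AZA by -2.35 within 1 slide, a value that ranged from -2.46 to -2.33 over 6 ways of processing.

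Rpl3l, a copy of Rpl3 known from skeletal and heart muscle, measured 7.55 in ES, 8.37 with AZA and 7.52 with CHQ and was not well above background in ELA (6.83). It was thus at least 1.65-fold higher in ES, at least 2.92-fold higher with AZA and at least 1.61-fold higher with CHQ than the bound on ELA, under this normalisation. Over 6 ways of processing AZA minus ELA ranged from 1.16 to 2.29, CHQ minus ELA from 0.13 to 1.07 and ELA minus ES from -1.11 to -0.50, so the bounds do not hold under all of them. Under the rule it was called higher with AZA, but not under the 75th percentile, where the mean of ELA (5.83) and AZA (8.12) lay below 7.5.

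Rpl22l1 was lowest with CHQ. It measured 16.48 and 16.62 in ES and ELA, 16.34 with AZA and 14.84 with CHQ, and was called lower with CHQ against ELA (-1.77) and against AZA (-1.5), the latter within a slide. On the CHQ array its parent Rpl22 differed by -0.43 from ELA and by -0.11 from AZA. Over 6 ways of processing the paralogue's values ranged from -2.46 to -1.77 and from -1.71 to -1.5.

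The other 4 paralogues had no called difference. Rpl7l1, a protein of the pre-ribosome, measured 11.89, 11.18, 10.67 and 10.64 on ES, ELA, AZA and CHQ, and Rpl36al, a copy of Rpl36a, measured 16.31, 16.27, 16.09 and 15.63. Rps27l, a known p53 target, measured 17.57, 17.36, 17.46 and 17.67, and Rps4y2, a copy of Rps4x, measured 16.01, 15.75, 16.44 and 16.53. Rpl7l1 was highest on ES, and the differences of Rps27l from ELA with AZA (0.10) and CHQ (0.31) turned to -0.51 and -0.49 under the 75th percentile. Under other scalings Rpl36al reached -1.30 for CHQ minus ELA and Rpl7l1 reached -1.35 for ELA minus ES.

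**Figure D5:**
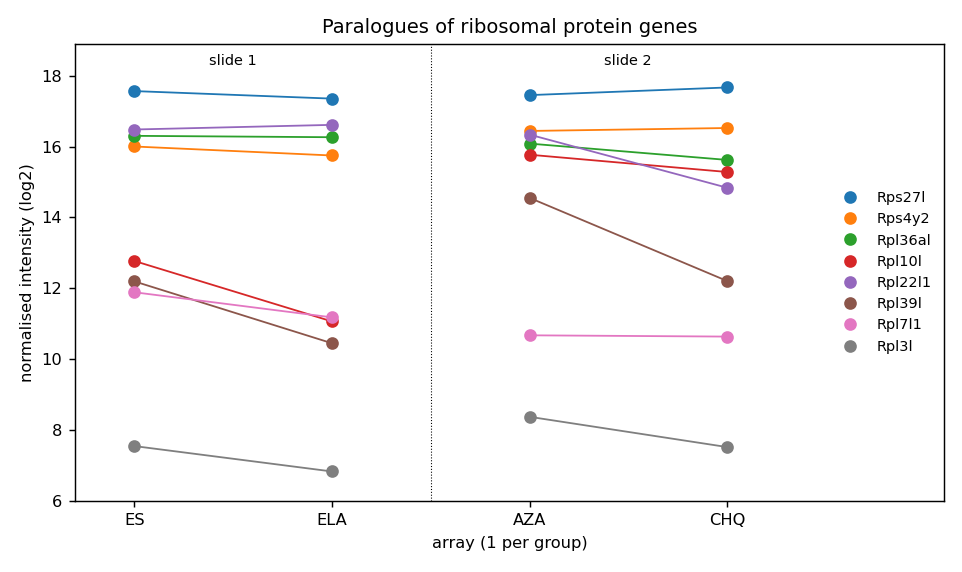
Normalised intensity (log2, y axis) of the brightest probe of each of 8 paralogues on the 4 arrays (x axis); lines join arrays of the same slide. Rpl10l lies at 11.06 in ELA and at 15.77 and 15.28 with AZA and CHQ, Rpl39l is highest with AZA at 14.56, and Rpl22l1 is lowest with CHQ at 14.84.

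The parents of these paralogues had no called difference. Rpl10 differed from ELA by -0.07 with AZA and -0.23 with CHQ, Rpl39 measured 17.68, 17.61, 17.70 and 17.72 on the 4 arrays, and Rpl3 differed by -0.10 and -0.42. No paralogue probe aligned without gaps to a probe of its parent by the overlap rule used. Only the parent's probes on the array were compared and not its whole mRNA, so binding of parent mRNA to a paralogue probe was not tested.

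The promoters of Rpl10l and Rpl39l are given from RefSeq (build GRCm38.p6, 250 bases before and 50 from the annotated start), since AZA inhibits the enzymes that methylate CG dinucleotides. Capitals mark CG.
Rpl10l, chr12:66284352-66284651, minus strand: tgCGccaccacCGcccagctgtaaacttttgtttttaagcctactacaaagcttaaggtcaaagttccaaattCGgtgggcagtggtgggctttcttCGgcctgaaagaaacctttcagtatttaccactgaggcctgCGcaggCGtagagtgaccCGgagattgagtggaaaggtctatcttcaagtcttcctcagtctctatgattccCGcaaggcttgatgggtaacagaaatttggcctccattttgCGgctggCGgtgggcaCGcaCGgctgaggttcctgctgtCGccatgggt
Rpl39l, chr16:10169978-10170277, plus strand: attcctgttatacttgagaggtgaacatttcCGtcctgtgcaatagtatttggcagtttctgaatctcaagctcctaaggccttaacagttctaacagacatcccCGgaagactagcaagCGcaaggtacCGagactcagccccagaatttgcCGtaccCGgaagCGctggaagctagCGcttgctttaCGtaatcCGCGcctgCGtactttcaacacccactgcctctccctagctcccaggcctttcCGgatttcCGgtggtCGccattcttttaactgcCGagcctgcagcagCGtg

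The Rpl10l promoter held 13 CG dinucleotides in 300 bases and that of Rpl39l held 17. The median over 65 promoters of 55 subunit genes was 21, and over all 32851 promoters in the table it was 7, with the middle 50% from 3 to 20. Methylation of these sites was not measured on the arrays.

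The start of the subunit genes was examined because TOP mRNAs begin with C and go on in pyrimidines. In the 70 bases from 20 before to 50 after the annotated start, 70.8% of the subunit promoters held a C followed by at least 7 bases that were each C or T on the gene's strand, beside 6580 of all 32851 promoters. On the opposite strand the shares were 12.3% and 23.3%, and of 75 promoters of mitochondrial ribosomal proteins 21.3% held such a run. The annotated starts are those of RefSeq and can differ from the start used in these cells. Examples from genes described above follow, with the longest run in capitals (build GRCm38.p6).
Rps6, chr4:86857318-86857387, minus strand: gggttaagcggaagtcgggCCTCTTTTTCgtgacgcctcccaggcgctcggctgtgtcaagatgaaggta
Rpl28, chr7:4792945-4793014, plus strand: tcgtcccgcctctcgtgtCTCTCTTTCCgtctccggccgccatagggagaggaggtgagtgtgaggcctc
Rpl11, chr4:136053344-136053413, minus strand: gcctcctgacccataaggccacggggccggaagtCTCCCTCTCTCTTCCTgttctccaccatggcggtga
Rpl7a, chr2:26910787-26910856, plus strand: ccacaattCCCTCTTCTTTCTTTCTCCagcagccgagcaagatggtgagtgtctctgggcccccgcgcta
Rpl22l1, chr3:28805488-28805557, plus strand: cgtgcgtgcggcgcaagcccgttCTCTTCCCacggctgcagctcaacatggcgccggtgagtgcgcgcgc
Rpl10l, chr12:66284352-66284421, minus strand: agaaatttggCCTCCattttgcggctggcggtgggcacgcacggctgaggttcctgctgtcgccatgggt
Rpl39l, chr16:10170208-10170277, plus strand: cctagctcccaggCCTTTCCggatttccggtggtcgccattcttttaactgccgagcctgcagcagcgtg

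The longest run was 10 bases in Rps6 and Rpl28, 16 in Rpl11 and 19 in Rpl7a. It was 8 in Rpl22l1, 7 in Rpl39l and 5 in Rpl10l, so the windows of Rpl10l and Rpl39l hold no run of 8. Rps6 and Rpl28, which were higher with both inhibitors under quantile normalisation, and Rpl7a and Rpl11, which were lower, all hold one, but other genes described above do not. The longest run was 5 in Rps3 and Rplp0, 6 in Rpl23 and Rpsa, and 5 and 4 at the annotated starts of Rpl22. The letters CCGGAAG, read on both strands, were in 36.9% of the subunit promoters and 8.86% of all promoters, and AAGATGGC in 10.8% and 2.75%. Of the 75 promoters of mitochondrial ribosomal proteins 26 held the first and 12 the second, so neither set of letters sets the subunit genes apart from them. These matches describe letters and not bound factors.

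Other components of the ribosome outside the naming rule had no called difference either. Fau, which is cleaved to a small subunit protein, measured 18.48, 18.43, 18.79 and 18.44, and the small subunit scaffold Rack1 measured 18.64, 18.64, 18.36 and 18.37. Neither was called in any comparison. None of 17 translation factors and related genes with TOP mRNAs were called either, with medians of -0.04 for ELA minus ES, -0.15 for AZA and -0.23 for CHQ against ELA, beside -0.03, -0.02 and -0.03 over all genes. Of all genes 4.45% were called higher and 5.59% lower in ELA minus ES, 14.3% and 11.4% with AZA, and 14.8% and 11.9% with CHQ. Eef1a1, the elongation factor that delivers tRNA, differed from ELA by -0.64 with CHQ, and Pabpc1, the poly(A)-binding protein, by 0.72.

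None of the factors that build ribosomes was called between ELA and ES, where 4.45% of all genes were called higher and 5.59% lower. By any amount, 52.0% of all genes were lower in ELA. Of 72 biogenesis factors 64 were lower, with a median of -0.32, and of 14 measured genes of RNA polymerase I, which transcribes ribosomal RNA, 13 were lower, with a median of -0.35. The median of all genes was -0.03. Riok2, a kinase of small subunit maturation (-0.85), Ddx21, a nucleolar helicase (-0.79), and Nob1, the nuclease that finishes 18S RNA (-0.78), were lowest. Of 77 mitochondrial ribosomal protein genes 61 were lower, with a median of -0.18.

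With the inhibitors a smaller share of these factors was called than of all genes, of which 14.3% were called higher and 11.4% lower with AZA and 14.8% and 11.9% with CHQ. Against ELA, AZA gave 0 higher and 3 lower biogenesis factors of 72 (Naf1, Nop16 and Utp14a), and CHQ gave 1 higher (Sbds) and 5 lower (Mrto4, Nop16, Pes1, Rrp9 and Utp14a). Utp14a, a helicase cofactor of the small subunit processome, measured 12.50, 12.33, 11.03 and 10.80 and was the lowest with both. Pes1, of the complex that matures the large subunit, measured 12.96, 13.08, 12.09 and 11.70. Of 77 mitochondrial ribosomal proteins, AZA gave 1 call upward (Mrps17) and 3 downward, and CHQ gave 1 upward (Mrps6) and 6 downward, also smaller shares than those of all genes.

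Of the regulators of TOP mRNAs and mTOR, 17 in all, 1 was called higher (Eif4ebp1, 1.02) and 1 lower (Akt1s1, -1.26) with AZA, and 1 higher with CHQ (Eif4ebp1, 1.05), again smaller shares than those of all genes. Larp1 measured 15.59, 15.93, 15.90 and 16.14. Rptor, the subunit that defines mTOR complex 1, measured 12.55, 12.70, 11.98 and 13.50 and was called higher with CHQ than with AZA (1.52), where 5.53% of all genes were. Of the other lists Cd3eap, Mycl, Mrpl23 and Mrps24 were called lower in that comparison, where 4.81% of all genes were. Of 9 Myc family genes, Myc (-1.54) and Mycn (-1.07) were called lower and Mxd4 (1.45), a Myc antagonist, higher in ELA than in ES, where 4.45% of all genes were called higher and 5.59% lower. Against ELA, Mga and Mxd4 were called higher with AZA, and Mga, Mxd4 and Mycn higher and Mycl lower with CHQ, beside 14.3% (higher, AZA), 14.8% (higher, CHQ) and 11.9% (lower, CHQ) of all genes.

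The p53 list held 5 called genes of 10 with each inhibitor, all higher than in ELA, where 14.3% of all genes were called higher with AZA and 14.8% with CHQ. In ELA minus ES 2 of the 10 were called lower, Mdm4 (-1.05) and Plk2 (-1.20), where 5.59% of all genes were. Mdm2, the ubiquitin ligase that ribosomal proteins bind, measured 15.26, 14.46, 16.53 and 17.19, and Cdkn1a, the cell cycle inhibitor, measured 11.40, 11.42, 13.24 and 12.92. Trp53 itself measured 11.56, 10.92, 11.27 and 10.82 and was not called. Rps27l did not follow these genes by a call, at 0.10 with AZA and 0.31 with CHQ.

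Pseudogene names were kept apart. The 15 such names (12 of the large and 3 of the small subunit) had medians of -0.06 for ELA minus ES, of -0.07 and -0.17 with AZA and CHQ against ELA, and Rpl26-ps2 alone was called, lower with AZA (-1.13) and with CHQ (-1.42), where 11.4% and 11.9% of all genes were called lower. Rps19bp1, a nucleolar partner of Rps19 and no ribosomal protein, measured 13.87, 13.79, 14.31 and 14.13.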

How the data were processed

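Per the labels, Cy3-labelled cRNA was hybridised to Agilent SurePrint G3 mouse arrays, 1 per group. The deposited scanner files (Feature Extraction 10.7.3.1 in the headers, 9.1 in the submitters' processing notes) hold spot intensity values that the authors had not normalised between arrays, and the deposited value table holds log2 values after background correction and quantile normalisation in limma by the authors. It correlated at 0.999 with normexp values without offset over 55122 probes, which sets its scale as log2.

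Here the mean spot intensity was corrected by normexp on the local background (offset 50) and quantile-normalised with limma 3.58.1 in R 4.3.3. Control and outlier spots were left out, spots of a probe were averaged, and each gene was read by its brightest probe. Lists were summarised with pandas 2.3.3. The accession of 47.8% of probes matched a RefSeq table (GRCm38.p6), which gave current names, while members kept the file's name. Members and gene lists were chosen with earlier results of these data known. The genes named are the paralogues, 13 members set by role (stalk, Mdm2-binding, S6 kinase target, ubiquitin fusion and others), the 5 highest and 5 lowest differences per comparison, called genes, and genes whose probes disagreed, and from other lists the called genes and up to 3 with the largest differences. Others (Rpl3, Rpl39, Larp1, Rack1 and the like) were named after their values were seen. The scripts were tested on simulated data. With 1 array per group no p-value was computed. Alternatives were other background corrections, scalings, probe rules, filters and thresholds. Some values that this rule would name are not reported here.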

Additional observations from a re-analysis of the deposited data

How the results depend on the processing

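With 1 array per group, no difference had a replicate check, and precision is limited by how few arrays there are. Scaling decided the subunit medians. For AZA minus ELA the 75th percentile gave -0.85 for the large and -0.85 for the small subunit and the spike-in probes -0.88 and -0.90. For CHQ minus ELA they gave -1.07 and -1.05, and -1.19 and -1.16. Under the spike-in probes ELA minus ES was -0.55 and -0.58, and CHQ minus AZA -0.34 and -0.28. Called subunit genes, 0 in all 4 comparisons, became 19 and 26 with AZA and 47 and 58 with CHQ under these scalings. They became 1 with AZA and 9 with CHQ when the dimmest probe was read, an alternative chosen after seeing the data. At a threshold of 0.5 they became 2 with AZA, 5 with CHQ and 1 between the inhibitors. Of all genes 47.6%, 45.0% and 69.8% lay within 0.5 of 0 in these comparisons. Of the subunit genes 97.4%, 93.4% and 98.7% did, so smaller shares of them passed. The 557 other genes with a mean of 17 or more came near these shares, with 90.5%, 86.0% and 97.8%. The small subunit median of CHQ minus ELA went from -0.07 to -0.15 with the mean over probes and to -0.26 with the dimmest probe. No called paralogue difference changed sign. No paired analysis was possible because each group has 1 array.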
